A study of Mus musculus with 6 samples.

Results

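The TNF receptor superfamily genes described here are 10 receptors that T cells can carry, namely Tnfrsf1a, Tnfrsf1b, Tnfrsf4, Tnfrsf8, Tnfrsf9, Tnfrsf18, Tnfrsf25, Tnfrsf10b, Cd27 and Fas. They were chosen by symbol, matched to Ensembl identifiers, and all 10 were found among the 26128 genes of the deposited table. RNA was sequenced from mouse double negative T (DNT) cells in 3 libraries without IL-33 (Control) and 3 libraries with IL-33 at 50 ng/ml, all after 48 h of culture with anti-CD3/CD28 beads. The cells came from adult C57BL/6 mice, had been converted in culture from CD4+CD25- T cells with mature DBA/2 dendritic cells and IL-2, and were sorted as CD3+NK1.1-CD4-CD8- cells. The labels name the spleen as their tissue, and the paper's methods name spleen and lymph nodes. Both groups therefore share the conversion, the sort and the beads and differ in IL-33, and whether the replicates are separate cultures or mice is not given in the sources used here, so p values measure the spread between these libraries, which may be technical. Values of a group are given as the mean ± SD with n = 3 unless single libraries are listed.

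Receptors of this superfamily bind trimeric ligands of the TNF family through cysteine-rich repeats outside the cell. One class carries a death domain in its cytoplasmic tail and can recruit adaptors that in some cases lead to caspase activation. The other class has no death domain, binds TRAF proteins directly and feeds the canonical and non-canonical NF-κB pathways. The split is by domain, and feeding NF-κB is not limited to the class without a death domain. On activated T cells the TRAF-binding receptors act as costimulators of survival and division, whereas Fas can trigger cell death. What the other death domain receptors do in these cells was not tested.

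The libraries held 20256342 to 22336050 counts. Levels are given in CPM, counts relative to the library size after TMM scaling, and the counts of the 10 receptors ran from 83 for Tnfrsf25 in 1 library to 29237 for Tnfrsf9 in another. The 6 T cell markers examined summed to 2831 to 2946 CPM without IL-33 and 2970 to 3068 with it. Of the markers that the sort should remove, Cd4 stood at 0.934 ± 0.183 CPM in Control cells and 0.373 ± 0.143 CPM in cells with IL-33, whereas Cd8a was present at 545 ± 13.6 and 400 ± 9.15 CPM, so the transcript of a coreceptor that the label excludes was not absent. Cd8b1, the other CD8 chain, was higher with IL-33, at 9.68 ± 1.65 and 16.3 ± 2.07 CPM (log2 fold change 0.75, edgeR adjusted p = 6.2e-08), whereas Cd4, Cd8a and Klrb1c were lower. Klrb1c, the gene of NK1.1, stood at 33.5 ± 2.57 and 25.6 ± 1.15 CPM. All 8 dendritic and myeloid markers were listed and summed to 97.8 to 102 CPM without IL-33 and 73.0 to 79.0 with it, and Flt3, Csf1r and Lyz2 were too low to be tested. The tested members did not move together, since Itgax, which activated T cells can also carry, fell from 54.6 to 26.0 CPM and Cd74 from 5.66 to 3.78, H2-Ab1 rose from 24.8 to 30.3 (edgeR adjusted p = 0.00123), and Xcr1 and Zbtb46 did not pass, with log2 fold changes of 0.11 and 0.043. Of 4 B cell markers Ms4a1 and Pax5 were at 0 in every library and the others summed to 1.12 to 1.87 CPM over all libraries. Of 6 mast cell and basophil markers Mcpt4 was at 0 in every library, and the list summed to 14.9 to 19.9 CPM without IL-33 and 10.2 to 13.6 with it. Cpa3 of this list fell from 10.9 ± 2.04 to 7.1 ± 0.615 CPM (log2 fold change -0.62, edgeR adjusted p = 8.3e-05). Mcpt8, at -0.43, did not pass (adjusted p = 0.0559 in edgeR), and Fcer1a, Ms4a2 and Tpsb2 were too low to be tested. Of 4 NK cell markers Ncr1 and Klra8 were too low to be tested, and the list, which includes Klrb1c and Eomes, summed to 405 to 408 CPM without IL-33 and 373 to 393 with it. The part of cells of other types in the receptor values below was not tested, and in bulk RNA fewer cells of a type and less RNA per cell cannot be told apart.

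Of the 10 receptor genes 5 changed in expression with IL-33. Tnfrsf8, Tnfrsf9 and Tnfrsf10b were higher, and Tnfrsf25 and Tnfrsf1a were lower, each with an adjusted p under 0.05 in the quasi-likelihood test of edgeR, adjusted by Benjamini-Hochberg over the 14671 genes tested. These 5 of 10 stand beside 27.5% of all genes tested with an adjusted p under 0.05, 13.6% higher and 13.9% lower. Tnfrsf25 was the 1 gene that also passed the fold change threshold of the study, 1.5-fold, which together with the adjusted p was met by 4.87% of all genes tested, 2.47% higher and 2.39% lower. In 6 of 10 genes the groups did not overlap, 3 in each direction, and the same held for 38.9% of all genes tested, 19.4% higher and 19.5% lower with IL-33. The median log2 fold change of the 10 genes was 0.0077, beside -6.3e-04 over all genes tested, and the median size of the change regardless of direction was 0.22, beside 0.15.

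**Figure D1:**
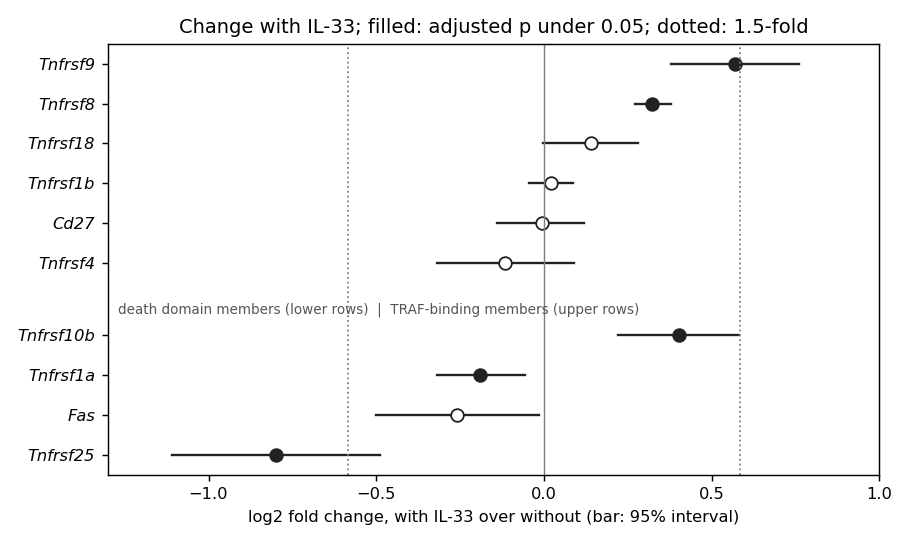
Log2 fold change (x axis) of the 10 receptor genes (y axis, death domain genes in the lower rows, TRAF-binding genes in the upper rows) with 95% intervals that are not adjusted for multiple tests, from 3 libraries with IL-33 against 3 without. Filled points have an adjusted p under 0.05, and Tnfrsf25 at -0.80 is the 1 gene past the dotted line of 1.5-fold, with Tnfrsf9 at 0.57 just inside it.

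The death domain receptors were 4 of the 10 genes, and 3 of them changed, 1 upward and 2 downward. Among all genes tested 13.6% were higher and 13.9% were lower by the adjusted p. Tnfrsf25 (ENSMUSG00000024793, chromosome 4 from 152115934 to 152120119 of GRCm38 by GENCODE M21), which encodes DR3, the receptor of TL1A, had 8.81, 8.02 and 6.02 CPM in the Control libraries and 4.93, 3.96 and 4.23 CPM with IL-33. All 3 libraries with IL-33 were below the lowest Control library, and Control replicate 3 lay closest to them. The level fell from 7.62 ± 1.44 to 4.37 ± 0.501 CPM, a log2 fold change of -0.80 (95% interval -1.11 to -0.49, SE 0.16, edgeR adjusted p = 2.2e-05). Leaving out single libraries moved this change between -0.94 (no Control replicate 3) and -0.68 (no Control replicate 1), and its adjusted p stayed at or below 0.00135 in edgeR.

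Tnfrsf10b (ENSMUSG00000022074, chromosome 14 from 69767472 to 69784411), the gene of the mouse death receptor for TRAIL, moved the other way. Its level was 16.9, 14.9 and 16.0 CPM without IL-33 and 20.6, 19.6 and 23.0 CPM with it. The groups did not overlap, and the rise from 15.9 ± 0.980 to 21 ± 1.75 CPM gave a log2 fold change of 0.40 (95% interval 0.22 to 0.58, SE 0.091, edgeR adjusted p = 2.3e-04).

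Tnfrsf1a (ENSMUSG00000030341, chromosome 6 from 125349362 to 125362484) encodes TNFR1, through which soluble TNF signals in most cell types. Its level was 39.2, 35.5 and 34.6 CPM without IL-33 and 32.9, 31.5 and 31.4 CPM with it, so the groups were separate but close. The log2 fold change was -0.19 (95% interval -0.32 to -0.057, SE 0.067, edgeR adjusted p = 0.0236), a fall of 12.3%. This call depended on the libraries and the tool, since the adjusted p was 0.0760 in DESeq2 and, in edgeR, 0.190 without Control replicate 1, 0.0734 without IL-33 replicate 2 and 0.0745 without IL-33 replicate 3.

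Fas (ENSMUSG00000024778, chromosome 19 from 34290666 to 34327772), the receptor by which activated T cells can be killed, had 10.9, 10.6 and 10.2 CPM without IL-33 and 9.62, 8.82 and 8.01 CPM with it. Although every library with IL-33 was below every Control library, the log2 fold change of -0.26 did not pass (95% interval before adjustment -0.50 to -0.014, adjusted p = 0.111 in edgeR). With these intervals a fall of Fas of up to 0.50 on the log2 scale was compatible with the counts.

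Among the 6 TRAF-binding receptors Tnfrsf9 and Tnfrsf8, the most abundant of all 10 genes, were higher with IL-33. Tnfrsf9 (ENSMUSG00000028965, chromosome 4 from 150914562 to 150946102) encodes the costimulator 4-1BB, also called CD137, which appears on T cells after activation. Its level was 827, 898 and 960 CPM without IL-33 and 1288, 1394 and 1299 CPM with it. The lowest library with IL-33 was far above the highest Control library, although the Control libraries themselves spread more than those of Tnfrsf8. Tnfrsf9 rose from 895 ± 66.5 to 1327 ± 58.7 CPM, a log2 fold change of 0.57 (95% interval 0.38 to 0.76, SE 0.070, edgeR adjusted p = 0.00571), which missed the fold change threshold. The edgeR fit was robust, which lets a gene with an unusual spread keep its own variance, and without robust estimation, a setting chosen after the data had been seen, the adjusted p of Tnfrsf9 was 2.5e-14. The log2 fold change was 0.62 without Control replicate 3, 0.593 without IL-33 replicate 1 and 0.586 without IL-33 replicate 3, so that Tnfrsf9 passed both thresholds in those fits. With each library left out in turn its adjusted p ran from 3.3e-14 to 0.0338 in edgeR.

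Tnfrsf8 (ENSMUSG00000028602, chromosome 4 from 145267137 to 145315164), the gene of CD30, a receptor of activated lymphocytes, had 454, 466 and 463 CPM without IL-33 and 577, 585 and 566 CPM with it. The libraries of each group lay close together and the groups were far apart. The rise from 461 ± 6.45 to 576 ± 9.51 CPM was a log2 fold change of 0.32 (95% interval 0.27 to 0.38, SE 0.027, edgeR adjusted p = 1.2e-18), or 1.25-fold. Over the fits tried other than the test against the fold change itself, its adjusted p stayed at or below 2.2e-09.

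Tnfrsf1b (ENSMUSG00000028599, chromosome 4 from 145213463 to 145246870), the gene of TNFR2, lies 20.3 kb from Tnfrsf8 on the same strand. Its level was 208, 213 and 209 CPM without IL-33 and 212, 215 and 213 CPM with it, and the groups overlapped. The log2 fold change was 0.022 with a 95% interval from -0.045 to 0.088 (adjusted p = 0.688 in edgeR), so a change of more than 0.088 in size lay outside the interval.

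Tnfrsf18 (ENSMUSG00000041954, chromosome 4 from 156026164 to 156028895) encodes GITR, a costimulator that regulatory T cells carry at high levels. It had 26.7, 27.3 and 28.6 CPM without IL-33 and 31.4, 31.7 and 28.0 CPM with it, where IL-33 replicate 3 fell within the Control range. The log2 fold change was 0.14 (95% interval -0.0015 to 0.28, adjusted p = 0.139 in edgeR). Tnfrsf18 shares 414 bases of exon with the antisense gene Gm16008, which stood at 2.17 ± 0.425 CPM without IL-33 and 1.55 ± 0.413 with it. Whether counting used the strand is not given in the sources, and without it the reads of this pair cannot be told apart.

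Tnfrsf4 (ENSMUSG00000029075, chromosome 4 from 156013843 to 156016612), the gene of the costimulator OX40, had 13.6, 14.7 and 16.2 CPM without IL-33 and 14.1, 13.8 and 13.1 CPM with it. The groups overlapped, and the log2 fold change was -0.12 (95% interval -0.32 to 0.090, adjusted p = 0.448 in edgeR). Cd27 (ENSMUSG00000030336, chromosome 6 from 125232622 to 125237010), the receptor of CD70 on naive and memory T cells, had 37.9, 39.0 and 34.4 CPM without IL-33 and 37.6, 33.8 and 39.3 CPM with it. These values were fully mixed, and the log2 fold change was -0.0061 (95% interval -0.14 to 0.12, adjusted p = 0.962 in edgeR). For Tnfrsf4 a change larger than 0.32 on the log2 scale lay outside the interval, and for Cd27 one larger than 0.14.

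Of the 6 TRAF-binding genes 2 thus had an adjusted p under 0.05, both higher, and 0 were past both thresholds in edgeR, DESeq2 or limma-voom, also at an unadjusted p under 0.05. Of the 4 death domain genes 1 was higher and 2 were lower. Over all genes tested 27.5% had an adjusted p under 0.05 in edgeR, 13.6% higher and 13.9% lower. Whether the classes differed was not tested.

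The level per length, in CPM per kb of exon, orders the receptors by abundance. Without IL-33 it was 329 ± 24.4 for Tnfrsf9, 133 ± 1.86 for Tnfrsf8, 55.0 ± 0.770 for Tnfrsf1b and 18.1 ± 0.653 for Tnfrsf18. It was 15.9 ± 1.04 for Cd27, 14.1 ± 0.924 for Tnfrsf1a, 10.9 ± 0.932 for Tnfrsf4 and 5.11 ± 0.172 for Fas. The lowest levels per length were 3.35 ± 0.631 for Tnfrsf25 and 2.92 ± 0.180 for Tnfrsf10b. The libraries of Cd27 and Tnfrsf1a overlapped, as did those of Tnfrsf25 and Tnfrsf10b. Those of the other 7 of 9 neighbours in this order did not overlap.

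With the union of exons as gene length, the first 8 places of the order were held by the same genes with IL-33, and Tnfrsf10b at 3.86 ± 0.321 then stood above Tnfrsf25 at 1.92 ± 0.220 CPM per kb, with no overlap. There the libraries of Fas, at 4.28 ± 0.392, and Tnfrsf10b overlapped. The order of the lowest genes depended on the length used, since with the longest transcript Tnfrsf25 was the lowest in both groups, at 4.59 and 2.63 CPM per kb, Tnfrsf10b stood at 5.01 and 6.62, and Fas at 6.49 and 5.43. Tnfrsf9 alone made up 56.0% of the summed level per length of the 10 genes without IL-33 and 62.6% with it. That sum ran from 560 to 610 CPM per kb over the Control libraries and from 763 to 805 over the libraries with IL-33.

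**Figure D2:**
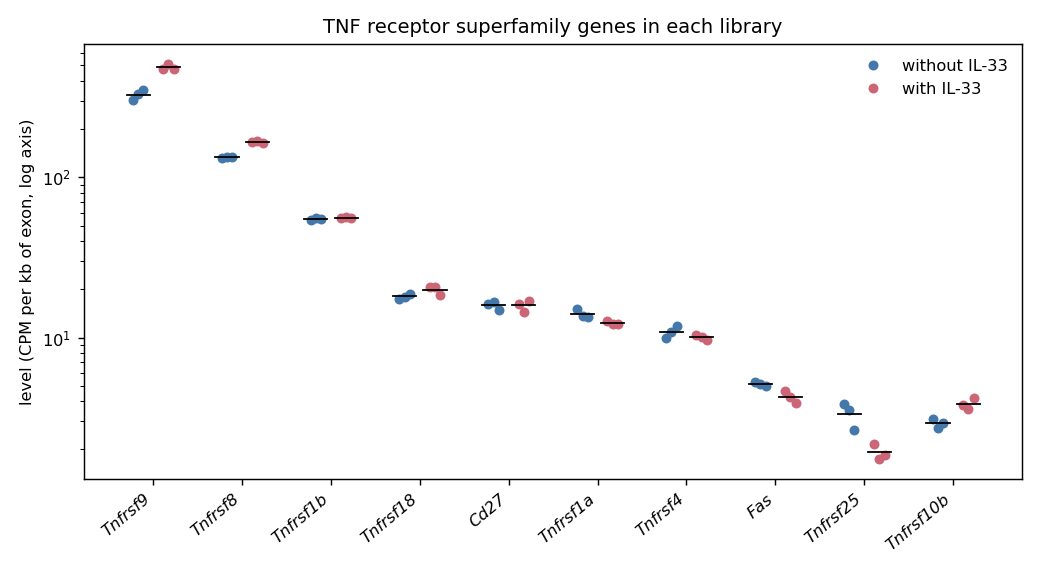
Level of each receptor gene (x axis, ordered by the mean without IL-33) in CPM per kb of exon (y axis, log scale) in each of 3 libraries without and 3 with IL-33, with the group mean as a line. Tnfrsf9 rises from 329 to 487 on this scale, and Tnfrsf25 goes from 3.35 to 1.92 and Tnfrsf10b from 2.92 to 3.86, with overlapping libraries of these genes without IL-33.

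The promoter windows of the receptors with the largest changes are given because NF-κB and AP-1 are the factors that T cell stimulation and IL-33 are known to activate. RefSeq windows of 300 bases (GRCm38.p6, 250 before to 50 after a start site) were matched by symbol for 9 of the 10 genes, all but Tnfrsf10b, 11 windows in all. They were searched on both strands for the NF-κB consensus known as the κB site, by that name, and for the AP-1 sites TGACTCA and TGAGTCA, which are the reverse complements of each other. The κB consensus was found in 3 windows, 1 each of Tnfrsf8, Tnfrsf9 and Tnfrsf25, and in 8.46% of all 32851 windows of this length. An AP-1 site was found in 3 windows, of Tnfrsf8, Tnfrsf9 and Fas, and in 5.20% of all windows. In Tnfrsf9 and Tnfrsf8 the matches of the κB consensus are a pair that overlap by all but 1 base. Matches stand in capitals in the windows of Tnfrsf9 (chr4:150927749-150928048, plus strand, κB from base -43 and AP-1 from base -15 relative to the start) and Tnfrsf25 (chr4:152116093-152116392, plus strand, κB from base -28 and again from base 37).
Tnfrsf9: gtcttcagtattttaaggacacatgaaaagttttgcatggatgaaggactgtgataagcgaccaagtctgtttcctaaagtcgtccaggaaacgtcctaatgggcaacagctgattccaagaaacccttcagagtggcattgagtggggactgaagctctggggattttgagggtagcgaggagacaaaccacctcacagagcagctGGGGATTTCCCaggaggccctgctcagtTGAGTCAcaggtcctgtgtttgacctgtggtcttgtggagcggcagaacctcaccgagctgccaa
Tnfrsf25: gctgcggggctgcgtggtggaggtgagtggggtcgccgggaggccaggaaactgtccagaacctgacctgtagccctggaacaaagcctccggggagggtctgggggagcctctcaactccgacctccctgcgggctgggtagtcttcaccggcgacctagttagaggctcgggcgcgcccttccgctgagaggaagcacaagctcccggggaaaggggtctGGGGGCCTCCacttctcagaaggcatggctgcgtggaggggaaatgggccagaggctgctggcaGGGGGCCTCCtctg
The window at the other start of Tnfrsf9 and that at the other start of Tnfrsf25 held neither motif. The windows printed are those with matches, and counts per gene do not show which start these cells use. One of these promoters belongs to a gene that rose and the other to a gene that fell, and a match is a run of letters, not a bound site.

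The ligands of these receptors were read in the same libraries. For 3 receptors, Tnfrsf8, Tnfrsf9 and Tnfrsf10b, the receptor was higher and its ligand was lower with IL-33, each by its own test. In 1 pair both fell, in 3 pairs only the ligand passed, in 2 only the receptor and in 3 neither. Of the 12 tested ligands of the whole family 8 were lower by the adjusted p, where 13.9% of all genes tested were lower. Whether receptor and ligand changes were linked was not tested. Tnfsf8, the CD30 ligand, fell from 122 ± 2.11 to 92.0 ± 4.68 CPM, or -0.40 on the log2 scale (SE 0.041, edgeR adjusted p = 1.4e-14). Tnfsf10, the gene of TRAIL, fell from 124 ± 2.87 to 89.9 ± 7.05 CPM, or -0.46 on the log2 scale (SE 0.043, edgeR adjusted p = 8.8e-16). Tnfsf9, the 4-1BB ligand, stood at 5.46 ± 0.515 CPM without IL-33 and 4.07 ± 0.456 with it, with an adjusted p of 0.0497 in edgeR that exceeded 0.05 in 9 of 13 other fits (other tools, scalings and filters, a replicate block, and each library left out), so the fall of this ligand was not firm.

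The remaining pairs showed other patterns. Tnfsf4, the OX40 ligand, rose from 24.2 ± 1.10 to 32.7 ± 1.64 CPM (log2 fold change 0.43, adjusted p = 6.1e-07 in edgeR), while its receptor Tnfrsf4 did not pass the test. Fasl fell from 93.5 ± 2.71 to 77.0 ± 0.256 CPM (log2 fold change -0.28, adjusted p = 3.6e-08 in edgeR), while Fas did not pass. The fall of Fasl was under the fold change threshold of the study. The paper, by sequencing and real-time PCR, reports Fasl as not altered. Tnf was lower (log2 fold change -0.65, adjusted p = 2.0e-07 in edgeR), as was Tnfrsf1a, whereas Tnfrsf1b did not pass, and Lta had a log2 fold change of -0.30 (adjusted p = 0.378 in edgeR).

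The ligands of the other 3 receptors were below the filter on low counts. Tnfsf15, the gene of TL1A, had 2, 5 and 14 counts without IL-33 and 1, 1 and 2 with it. Cd70 had 2, 0 and 0 counts against 2, 6 and 5, and Tnfsf18, the GITR ligand, had 0, 0 and 1 against 0, 7 and 3. A count of 0 allows up to 3 counts, or 0.135 to 0.148 CPM, by counting error alone. Fitted without the filter, none of the 3 passed in edgeR, with adjusted p values of 0.118 for Tnfsf15, 0.259 for Cd70 and 0.271 for Tnfsf18, and DESeq2 gave no adjusted p for them. Before adjustment 1 of them, Tnfsf15, had a p under 0.05 in both tools, with lower counts with IL-33.

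The balance of receptor and ligand transcripts per length differed among the pairs. Without IL-33 Tnfrsf9 stood at 329 CPM per kb and its ligand at 4.23, and Tnfrsf8 at 133 and its ligand at 31.9. In Fas and Tnfrsf10b the ligand was the higher transcript, at 48.3 for Fasl against 5.11 for Fas and at 23.5 for Tnfsf10 against 2.92 for Tnfrsf10b, and with IL-33 these were 39.7 against 4.28 and 17.1 against 3.86 CPM per kb.

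**Figure D3:**
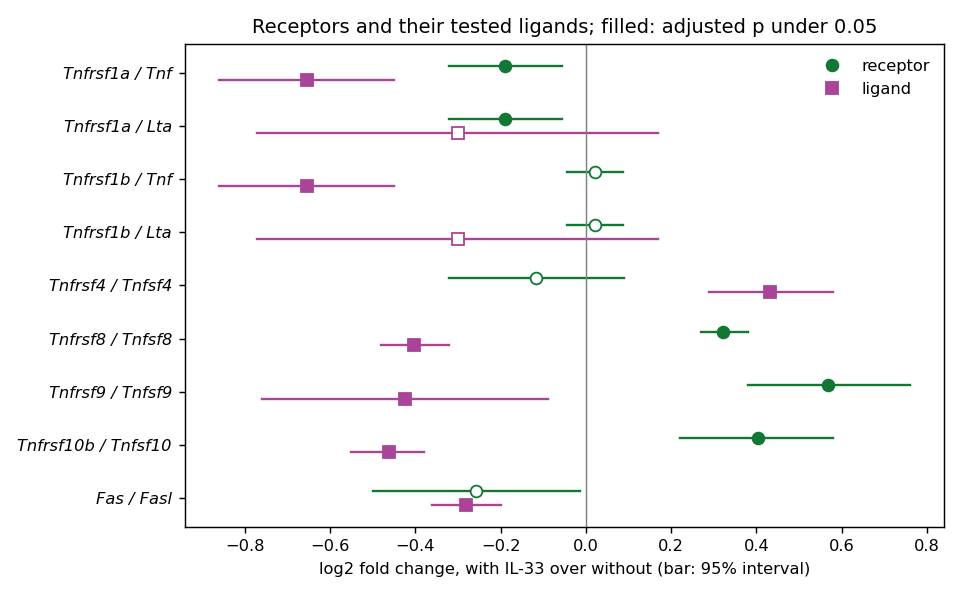
Log2 fold change with IL-33 (x axis) of each receptor gene (circles) and of its ligand where that could be tested (squares), 1 pair per row (y axis), with 95% intervals not adjusted for multiple tests over 3 libraries per group. In the pairs of Tnfrsf8, Tnfrsf9 and Tnfrsf10b the receptor lies above 0 and the ligand below, from 0.32 to 0.57 against -0.40 to -0.46, and the OX40 ligand Tnfsf4 lies above 0 at 0.43.

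Of all 18 ligand genes listed, 12 could be tested, of which 8 were lower and 1 was higher with an adjusted p under 0.05 in edgeR, or 75.0% beside 27.5% of all genes tested, with a median log2 fold change of -0.36 beside -6.3e-04. Tnf and Tnfsf14, the LIGHT gene, were the 2 past both thresholds, and Tnfsf14 fell from 44.2 ± 2.99 to 22.4 ± 1.13 CPM, or -0.98 on the log2 scale (edgeR adjusted p = 3.2e-23). Its receptor Tnfrsf14, HVEM, had a log2 fold change of -0.11 (95% interval -0.25 to 0.027, adjusted p = 0.249 in edgeR). Without Control replicate 3 and without IL-33 replicate 2 the change of Tnf was under the fold change threshold, at -0.561 and -0.572, which left 1 ligand past both.

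The rest of the receptor superfamily was examined as 18 genes, of which 12 could be tested and 2, or 16.7%, had an adjusted p under 0.05, beside 27.5% of all genes tested. Tnfrsf23, a decoy receptor for TRAIL, was higher and Relt was lower by the adjusted p, with log2 fold changes of 0.33 (SE 0.12, edgeR adjusted p = 0.0226) and -0.20 (SE 0.070, edgeR adjusted p = 0.0200), and 0 were past both thresholds in edgeR, DESeq2 or limma-voom, also at an unadjusted p under 0.05. In DESeq2 the adjusted p was 0.0674 for Tnfrsf23 and 0.0576 for Relt. Reads could be split between Tnfrsf23 and the similar Tnfrsf22, which lie on the same chromosome, and Tnfrsf22 had a log2 fold change of 0.25 (adjusted p = 0.300 in edgeR). Tnfrsf14 and the genes named here and in the accounts of the adaptors and of the non-canonical NF-κB genes were chosen after their values had been seen.

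Of 21 adaptors and regulators that bind, modify or shed these receptors, all could be tested, and 3 were higher and 5 were lower by the adjusted p, or 38.1% beside 27.5% of all genes tested, with a median log2 fold change of 8.4e-04. Of these 21 genes 0 were past both thresholds in edgeR, DESeq2 or limma-voom, also at an unadjusted p under 0.05. Traf1, an adaptor that associates with 4-1BB and CD30, rose from 303 ± 9.97 to 361 ± 10.3 CPM, or 0.25 on the log2 scale (SE 0.031, edgeR adjusted p = 2.7e-11). Birc2, the gene of the ubiquitin ligase cIAP1 that TRAF2 recruits, rose from 136 ± 0.257 to 166 ± 3.66 CPM, or 0.29 on the log2 scale (SE 0.037, edgeR adjusted p = 2.4e-10). Cflar, which encodes the caspase-8 inhibitor c-FLIP, had a log2 fold change of 0.086 (adjusted p = 0.0335 in edgeR), lost in 7 of 13 other fits. Traf2 and Traf3 fell, with log2 fold changes of -0.23 (adjusted p = 5.9e-04) and -0.21 (adjusted p = 2.3e-05 in edgeR), and so did Rbck1, a subunit of the linear ubiquitin ligase, with -0.20 (adjusted p = 2.4e-05 in edgeR). Tank at -0.17 (adjusted p = 0.0129 in edgeR) and Birc3 at -0.10 (adjusted p = 0.0351 in edgeR) were lost in 4 and 8 of 13 other fits. The death adaptors Tradd and Fadd and the kinase Ripk1 had log2 fold changes of -0.025, 0.070 and 0.00084 and did not pass.

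Of 4 genes of the non-canonical NF-κB pathway, which TRAF-binding receptors feed, 3 were lower by the adjusted p, where 13.9% of all genes tested were lower, and 0 were past both thresholds in edgeR, DESeq2 or limma-voom, also at an unadjusted p under 0.05. Map3k14, the kinase NIK, fell from 58.1 ± 2.86 to 44.9 ± 1.86 CPM, or -0.37 on the log2 scale (SE 0.056, edgeR adjusted p = 3.0e-08). Relb fell from 58.3 ± 3.82 to 44.1 ± 2.55 CPM, or -0.40 on the log2 scale (SE 0.057, edgeR adjusted p = 4.3e-09), and Nfkb2 by 0.20 on the log2 scale (adjusted p = 1.3e-05 in edgeR). Chuk, the kinase IKKα, had -0.091 (adjusted p = 0.0849 in edgeR).

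**Figure D4:**
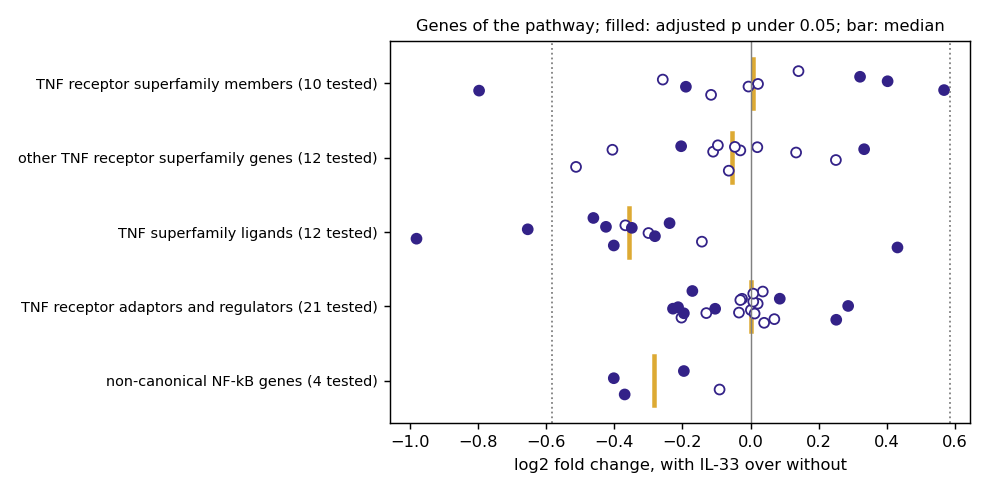
Log2 fold change with IL-33 (x axis) of every tested gene on 5 lists (y axis), from 3 libraries with IL-33 against 3 without, with filled points for an adjusted p under 0.05, bars for the median and dotted lines at 1.5-fold. The medians lie at 0.0077 for the 10 receptors, -0.36 for the ligands and -0.28 for the non-canonical NF-κB genes, and the receptors spread from -0.80 to 0.57.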

How the data were processed

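Bulk RNA was sequenced from 3 Control and 3 IL-33 libraries. The values the authors deposited are raw read counts for each gene, not normalized, and a column of mean normalized signal that was not used for any result. The submitters' processing notes name Bowtie 0.12.2 and the mm8 genome without saying for which step, while neither the counting program nor whether it used the strand is given there or in the paper. For the library kit the labels have TruSeq and the paper has NEBNext Ultra. Positions are those of GENCODE M21 (GRCm38), matched by identifier for 26086 of 26128 genes. Gene length is the union of exons.

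From the counts, genes were filtered with filterByExpr (minimum count of 10, minimum total of 15), which left 14671, scaled by TMM and compared with edgeR 4.0.16 (robust glmQLFit and glmQLFTest, two-sided, Benjamini-Hochberg adjustment over all genes tested) in R 4.3.3. Thresholds of 0.05 and 0.585 are those of the study. Standard errors (SE) and intervals were taken from that model. The members and lists were chosen with earlier results of these data known. The rule named every receptor, its ligands, list members past both thresholds and the nearest tested genes, and other list members and markers were named after their values had been seen. The fit was tested on simulated data. Promoters are those of the receptors with the largest changes among those with an adjusted p under 0.05. Replicates were not repeats of 1 library (chi-square of 2.64 to 3.67 per gene between them). Alternatives were DESeq2 1.42.0, limma-voom (limma 3.58.1), other scaling and filters, a replicate block, each library left out, and a test against the fold change. Limits for counts of 0 cover counting error only.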

Additional observations from a re-analysis of the deposited data

How the results depend on the processing

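The number of receptor genes past both thresholds was 1 in edgeR and stayed at 1 under DESeq2, limma-voom, DESeq2 size factors, either filter and without robust estimation. With 1 library left out at a time it ran from 1 to 2, for the TRAF-binding receptors from 0 to 1 and for the ligands from 1 to 2. The higher receptor counts came from Tnfrsf9, whose log2 fold change lay close to the threshold. By the adjusted p alone the counts in edgeR were 4036 of all genes, 5 receptors, 3 death domain and 2 TRAF-binding receptors, 2 other receptors, 9 ligands, 8 adaptors and 3 non-canonical NF-κB genes. In DESeq2 they were 4 of 10 receptors, 2 of 4 death domain and 2 of 6 TRAF-binding receptors, 5 of 21 adaptors and 3 of 4 non-canonical NF-κB genes. DESeq2 was run without the filter on low counts and gave 0 of 16 other receptors and 7 of 18 ligands. In limma-voom the ligand count was 8 of 12 and the other list counts were as in edgeR. The count among all genes by the adjusted p alone was not taken for DESeq2 or limma-voom. Past both thresholds DESeq2 had 501 of all genes and limma-voom 724, beside 714 in edgeR. A test against the fold change of 1.5 itself gave 113 of all genes, 0 receptors (1 at an unadjusted p under 0.05), 0 death domain receptors and 1 ligand, so this depth and number of libraries did not show that Tnfrsf25 changed by more than 1.5-fold. Cd27, which did not pass the test, had log2 fold changes from -0.0592 to 0.0551 with 1 library left out, and changed sign without Control replicate 1, Control replicate 2 or IL-33 replicate 2. Same-numbered libraries did not deviate together, with correlations of 0.00317 to 0.0116, although every library correlated best with its own number. With the replicate number as a block 666 genes were past both thresholds in place of 714, and the receptor count was 1. In the order of Control levels per length 7 of 9 neighbours were separate, and 7 to 9 with 1 Control library left out. With the longest transcript as gene length this count was also 7 but the order changed, with Cd27 (23.8 CPM per kb) above Tnfrsf18 (23.1) and Tnfrsf10b above Tnfrsf25 without IL-33, and Tnfrsf10b above Fas with it.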

Other observations

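Genes beside the receptors on the chromosome were read as a description, 20 in all that are no receptor of the list. By the adjusted p 1 was higher and 3 were lower, beside 13.6% higher and 13.9% lower of all genes tested. Park7, which encodes the protein DJ-1, lies 0.125 kb from Tnfrsf9 on the other strand and rose from 78.9 ± 2.58 to 108 ± 9.72 CPM, or 0.45 on the log2 scale (edgeR adjusted p = 7.7e-12). Camta1 overlaps Tnfrsf9 on the other strand without sharing exon bases and had a log2 fold change of 0.22 (adjusted p = 0.168 in edgeR). Beside Tnfrsf25, Plekhg5 at 0.534 kb on the same strand and Espn at 0.212 kb on the other strand each had a log2 fold change of -0.12, with adjusted p values of 0.538 and 0.330 in edgeR. Beside Tnfrsf10b, Rhobtb2 at 0.579 kb on the other strand had -0.068 (adjusted p = 0.542 in edgeR). Gm37090 between Tnfrsf4 and Tnfrsf18 was low, at 2.04 ± 0.237 CPM without IL-33 and 1.20 ± 0.175 with it, and had a log2 fold change of -0.75 (adjusted p = 0.0429 in edgeR), while Sdf4, 0.233 kb from Tnfrsf4, had 0.059 (adjusted p = 0.0993 in edgeR). Tapbpl, 0.762 kb from Cd27 on the same strand, had -0.15 (adjusted p = 0.00283 in edgeR), and Vamp1, which overlaps Cd27 on the other strand, also had -0.15 (adjusted p = 0.0669 in edgeR). 9430015G10Rik, 81.1 kb from Tnfrsf18, fell from 21.8 to 16.6 CPM, or -0.39 on the log2 scale (edgeR adjusted p = 2.9e-04). The other neighbours did not pass in edgeR, with log2 fold changes of -0.41 for Ltbr, 0.064 for Cd9, -0.091 for Vps13d, -0.12 for Smarca5-ps, 0.38 for Per3, -0.48 for Gm16008, 0.37 for 4930480K23Rik, 0.16 for 4930417O13Rik, 0.059 for Stambpl1 and 0.12 for Lipa.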
